A study of Mus musculus with 12 samples.

Results

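The genes described here are 8 genes of skeletal muscle contraction, Acta1, Ckm, Tnnc2, Atp2a1, Mylk2, Ryr1, Cacna1s and Xirp2, read in RNA-seq of mouse cortex and hippocampus. They were found by symbol among the 1017 genes listed in at least 1 of the tables deposited for cortex and hippocampus. The cortex table listed 7 of them among 561 genes, all but Cacna1s. In the hippocampus table, 2 were listed among 652 genes, Xirp2 and Cacna1s, and Xirp2 was the only 1 of the 8 in both. Each table holds only genes that differed between BK KO and WT mice by the authors' criteria, and the 8 genes were picked from them with these values known. Their levels in BK KO and WT mice are therefore given as a description, without a test, and a gene missing from a table has no value in that tissue.

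The libraries came from C57BL/6 mice, 3 WT (kcnma1+/+) and 3 BK KO (kcnma1-/-) for each tissue, 12 libraries in all. By the study's methods both tissues were taken from the same 3 mice of each genotype, so values of cortex and hippocampus are not from independent animals. The knockout was a frameshift deletion in exon 4 of kcnma1, constitutive rather than limited to brain, and both genotypes were adult littermates of heterozygous parents. The authors name no unit, and the value per library was taken as FPKM, in which fragments are divided by transcript length and library size. Genes are set side by side on that reading, and the depth of the libraries is unknown. The targeted gene Kcnma1, which encodes the BK channel pore, had a cortex level of 11.2 ± 1.21 FPKM in WT and 2.94 ± 0.168 FPKM in BK KO (SD, n = 3). Its log2 fold change was -1.63 in each tissue.

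In skeletal muscle, an action potential moves the voltage sensor Cacna1s in the transverse tubule, which opens the calcium release channel Ryr1 of the sarcoplasmic reticulum. Calcium binds troponin C on the thin filament, encoded in fast fibres by Tnnc2, and lets myosin pull on the skeletal actin Acta1. Atp2a1 pumps the calcium back, Ckm regenerates ATP from phosphocreatine, Mylk2 phosphorylates the myosin regulatory light chain, and Xirp2 binds actin near the ends of the contractile units. Most of these transcripts are known as markers of muscle fibres, whereas Ryr1 is also known from neurons.

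The DNA just upstream of the gene start is shown for the 4 genes with the highest FPKM in WT cortex, and for Xirp2, the gene listed in both tissues, since muscle genes are known for short binding motifs in this region. The sequences are the 250 bases before the start on GRCm38.p6, from RefSeq, written 5′ to 3′ on the strand of the gene. Capitals mark the E-box CAGCTG, the TATA box TATAAA, the MEF2 site and the SRF CArG box, searched on both strands. CAGCTG is one form of the broader E-box CANNTG, the kind bound by MyoD and related factors.
Acta1, chr8:123894776-123895025, minus strand: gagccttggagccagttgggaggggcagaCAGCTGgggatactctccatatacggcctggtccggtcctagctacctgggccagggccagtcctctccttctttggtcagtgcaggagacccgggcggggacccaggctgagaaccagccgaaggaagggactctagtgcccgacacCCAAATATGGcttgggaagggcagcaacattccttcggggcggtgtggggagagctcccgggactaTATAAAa
Tnnc2, chr2:164779735-164779984, minus strand: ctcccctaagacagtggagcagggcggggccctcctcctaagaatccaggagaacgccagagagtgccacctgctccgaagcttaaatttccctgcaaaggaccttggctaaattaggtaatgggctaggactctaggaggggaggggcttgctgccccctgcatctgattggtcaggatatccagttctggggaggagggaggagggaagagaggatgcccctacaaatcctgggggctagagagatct
Ckm, chr7:19410844-19411093, plus strand: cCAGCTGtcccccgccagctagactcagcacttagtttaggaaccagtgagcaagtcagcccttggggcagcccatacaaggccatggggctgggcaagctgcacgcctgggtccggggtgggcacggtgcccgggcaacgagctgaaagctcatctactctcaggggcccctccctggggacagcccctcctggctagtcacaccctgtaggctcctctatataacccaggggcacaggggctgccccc
Atp2a1, chr7:126463074-126463323, minus strand: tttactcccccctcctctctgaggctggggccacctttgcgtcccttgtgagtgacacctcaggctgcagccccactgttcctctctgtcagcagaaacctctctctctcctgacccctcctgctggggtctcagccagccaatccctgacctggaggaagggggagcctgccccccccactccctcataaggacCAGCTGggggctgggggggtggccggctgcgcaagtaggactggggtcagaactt
Xirp2, chr2:67445752-67446001, plus strand: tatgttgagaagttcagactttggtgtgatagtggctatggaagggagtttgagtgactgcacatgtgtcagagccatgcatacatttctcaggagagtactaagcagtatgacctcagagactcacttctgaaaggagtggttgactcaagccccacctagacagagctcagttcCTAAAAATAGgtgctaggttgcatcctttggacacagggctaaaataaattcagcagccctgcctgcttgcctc

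A promoter was found for 7 of the 8 genes, all but Mylk2. CAGCTG was in 4 of the 7 (Acta1, Ckm, Atp2a1 and Cacna1s), and in 13.0% of all 32851 promoters of the same length. In Atp2a1 it lay 55 to 50 bases before the start, and in Ckm 249 to 244 bases before it. Acta1 alone held a CArG box, 73 to 64 bases before the start, a motif in 1.47% of all promoters. It also had the only TATAAA, a motif in 12.4% of all promoters, 7 to 2 bases before the start as annotated. The MEF2 site was in Xirp2, 74 to 65 bases before the start, and in 2.92% of all promoters. Tnnc2 held only the broader CANNTG, found in 6 of the 7 and in 66.2% of all promoters, and Ryr1 held none of the 5 motifs. These matches are letters in a window and were not tied to binding in these tissues.

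In cortex all 7 listed genes had lower FPKM in each BK KO library than in each WT library. The groups did not overlap in this direction for 56.3% of all listed cortex genes. On log2(FPKM + 1), 5 of the 7 (Acta1, Ckm, Tnnc2, Atp2a1 and Ryr1) were lower and past the threshold, an unadjusted limma p-value under 0.05 with a log2 fold change beyond 0.58, against 20.0% of all listed cortex genes. Nothing is read from these counts, because the genes were chosen on the same contrast. Their median log2 fold change was -1.07, and that of all listed cortex genes was -0.33. In bulk tissue, fewer cells of a type and less RNA per cell cannot be told apart.

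Among the thin filament genes, Acta1, skeletal α-actin, was 26.0, 13.2 and 9.73 FPKM in WT replicates 1, 2 and 3 and 7.49, 6.32 and 6.12 FPKM in BK KO replicates 1, 2 and 3. It kept the highest level of the 7 in BK KO cortex, and its lowest WT library lay above its highest BK KO library. The mean went from 16.3 ± 8.55 to 6.64 ± 0.742 FPKM (SD, n = 3), which is -1.07 (standard error 0.33) as a log2 fold change. Tnnc2, the calcium sensor of fast fibres, was 25.2, 5.01 and 4.16 FPKM in WT and 0.495, 0.0949 and 0.109 FPKM in BK KO. WT replicate 1 was far above the other WT libraries, and all 3 BK KO libraries were below 0.5 FPKM. Its means were 11.4 ± 11.9 and 0.233 ± 0.227 FPKM (SD, n = 3), the WT mean was 49.2 times the BK KO mean, and the log2 fold change was -2.93 (standard error 0.62).

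The enzyme Ckm, which buffers ATP during contraction, was 13.9, 3.15 and 3.47 FPKM in WT and 0.0802, 0.0361 and 0 FPKM in BK KO. Again WT replicate 1 stood above the other WT libraries, and 1 BK KO library was listed at 0. The log2 fold change was -2.65 (standard error 0.49). Atp2a1, the calcium pump of fast fibres, was 6.65, 2.21 and 2.37 FPKM in WT and 0.0850, 0.360 and 0.0879 FPKM in BK KO. Here the highest BK KO library was replicate 2, still below every WT library. The WT mean of 3.74 ± 2.52 FPKM was 21.1 times the BK KO mean of 0.178 ± 0.158 FPKM (SD, n = 3), and the log2 fold change was -1.90 (standard error 0.35).

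The calcium release channel Ryr1 was 1.29, 1.76 and 1.62 FPKM in WT and 0.877, 0.660 and 0.479 FPKM in BK KO. Unlike the genes above, its lowest WT library was replicate 1. The mean fell from 1.56 ± 0.240 to 0.672 ± 0.199 FPKM (SD, n = 3), and the log2 fold change was -0.62 (standard error 0.12). Leaving out WT replicate 2 or BK KO replicate 3 brought it to -0.56 and -0.53, short of the threshold. For Acta1, leaving out BK KO replicate 2 gave -1.05, no longer past the threshold.

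The other cortex members were near the bottom of the scale. Mylk2, the myosin light chain kinase of skeletal muscle, was 0.143, 0.121 and 0.0349 FPKM in WT and was listed at 0 in all 3 BK KO libraries. Xirp2 was 0.221, 0.0763 and 0.117 FPKM in WT and 0.0446, 0.0398 and 0.0125 FPKM in BK KO, so its WT mean was 4.27 times its BK KO mean. Neither passed the threshold, with log2 fold changes of -0.14 (standard error 0.08) each on the log2(FPKM + 1) scale, which compresses such low values. With a pseudocount of 0.1 they came to -0.95 and -0.81 and passed it. The scale also compressed the low BK KO values of Ckm, Tnnc2 and Atp2a1. With a pseudocount of 0.1 their log2 fold changes were -5.34, -4.82 and -3.74, beside -1.17 for Acta1 and -1.12 for Ryr1. The plot of FPKM by library in cortex shows all 7 genes.

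**Figure D1:**
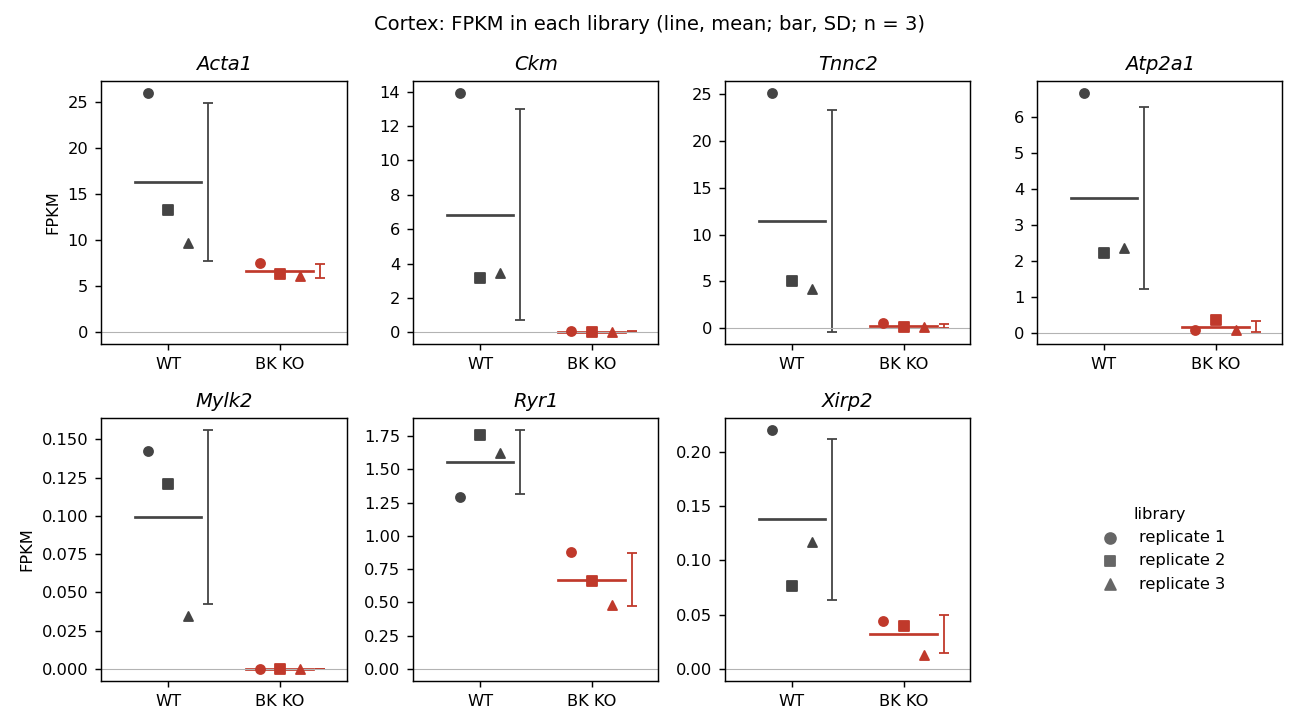
FPKM (y axis, a separate linear scale for each gene) of the 7 genes listed in cortex, in 3 WT and 3 BK KO libraries, with the mean as a line and the SD as a bar (n = 3) and the replicate number as the symbol. Each BK KO library lies below each WT library, and WT replicate 1 (circle) is the highest WT library for every gene but Ryr1.

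The makeup of the summed level changed along with its size. Over the 7 genes, cortex FPKM added up to 73.4, 25.6 and 21.5 in the WT libraries and 9.07, 7.51 and 6.80 in the BK KO libraries. Acta1 made up between 35.4% and 51.8% of the sum in WT and between 82.6% and 89.9% in BK KO. Tnnc2 made up between 19.3% and 34.3% in WT and between 1.26% and 5.45% in BK KO. In BK KO cortex, then, what was left of the summed FPKM was mostly Acta1, while Tnnc2, Ckm and Atp2a1 were each below 0.5 FPKM in every library.

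The WT cortex libraries differed among themselves in these genes. WT replicate 1 divided by the mean of WT replicates 2 and 3 was 5.49 for Tnnc2, the 2nd highest ratio of the 550 listed cortex genes that were above 0 in every WT library. Ckm ranked 6th at 4.21 and Atp2a1 12th at 2.91, followed by Xirp2 at 2.28, Acta1 at 2.26 and Mylk2 at 1.83. Ryr1 went the other way, at 0.764. The median was 2.28 over the 7 genes and 0.953 over all 550, of which 25 were over 2. Other genes of the muscle lists stood there too, with 8 of 17 over 2, among them Myot, a Z-disc protein, at 5.33, and the highest ratio of all, 5.83, was that of Tcf23, a transcription factor outside these lists. These ratios compare libraries of 1 genotype, but the same libraries entered the contrast on which the genes were chosen, so no test is given.

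**Figure D2:**
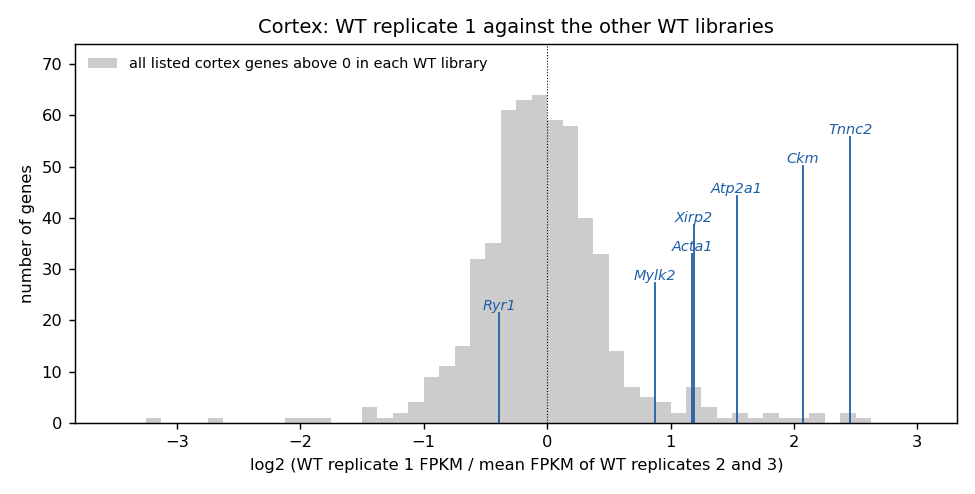
Number of listed cortex genes (y axis) by the log2 ratio of FPKM in WT replicate 1 to the mean of WT replicates 2 and 3 (x axis), with the 7 genes marked by lines whose height has no meaning. Tnnc2, Ckm and Atp2a1 lie in the right tail of the 550 genes, whose median ratio was 0.953 and of which 25 were over 2, and Ryr1 lies to the left of 0.

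Without WT replicate 1 the same 5 genes were past the threshold in cortex. The mean of WT replicates 2 and 3 was then 85.4 times the BK KO mean for Ckm, whose BK KO mean was only 0.0388 FPKM. It was 19.7 times for Tnnc2, 12.9 times for Atp2a1, 3.0 times for Xirp2, 2.52 times for Ryr1 and 1.73 times for Acta1. The log2 fold changes were -2.19 for Tnnc2, -2.05 for Ckm, -1.49 for Atp2a1, -0.70 for Acta1 and -0.69 for Ryr1. Leaving this library out made the differences smaller for Tnnc2, Ckm, Atp2a1 and Acta1 and larger for Ryr1, and turned no direction. As a percentage of the mean, the SD of the 3 WT libraries was 104 for Tnnc2, 89.5 for Ckm, 67.3 for Atp2a1, 52.4 for Acta1 and 15.4 for Ryr1, beside a median of 19.6 over all listed cortex genes.

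Within a genotype, 4 of the 7 genes varied together over the 6 cortex libraries. After subtracting each genotype's mean from log2(FPKM + 0.1), the Pearson correlation with the mean of the other members was 0.98 for Ckm, 0.94 for Acta1, 0.89 for Xirp2 and 0.85 for Tnnc2. It was 0.60 for Mylk2, 0.59 for Atp2a1 and -0.19 for Ryr1. These are descriptions over 6 points that share libraries and their depth, and WT replicate 1 has the largest deviation among them, 0.76 on the log2 scale. Of the other listed cortex genes, the 10 most like the members' mean were Tnxb (0.96), Ttn (0.95), Gabra2 (0.93), Plcz1 (0.91), Spsb1 (0.89), St18 (0.89), Hk3 (0.89), 9830147E19Rik (0.88), Cox8b (0.88) and F13a1 (0.86). Of these 10, Ttn, the giant spring protein titin, and Cox8b, a cytochrome c oxidase subunit of muscle, were on the muscle lists.

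The other genes of the contractile apparatus were read from 6 lists of muscle genes, 103 in all, of which the cortex table held 24, the 7 described above included. Of the 17 others, 16 had a lower mean in BK KO and 1 a higher mean, beside a lower mean in 395 of all 561 listed cortex genes (70.4%), and 6 were lower and past the threshold. That is a count beside the 20.0% of all listed cortex genes that were lower and past it, and the median log2 fold change of the 17 was -0.54. With a pseudocount of 0.1, 14 of the 17 were lower and past the threshold, and without WT replicate 1 it was 5. Leaving out the genes described above, the thin filament list had 2 genes listed, Tnni2 and Tnnt3, both lower and past the threshold. For the thick filament and titin 7 were listed, all with lower means and 2 past the threshold, and for energy metabolism 3, all with lower means and 2 past it. Of the Z-disc and sarcolemma list 4 were listed, 3 with lower means and none of these past the threshold, and 1 higher and past it. For excitation-contraction coupling and calcium only Casq1, the calcium store protein of the sarcoplasmic reticulum, was listed besides Ryr1 and Atp2a1, with overlapping groups and short of the threshold. None of the 15 myogenic regulators and genes of the neuromuscular junction was listed in cortex.

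Tnni2 and Tnnt3, the fast-fibre troponins I and T that sit beside Tnnc2, were 1.87 ± 1.22 and 1.88 ± 1.45 FPKM in WT cortex and 0.0555 ± 0.0379 and 0.0330 ± 0.0239 FPKM in BK KO cortex (SD, n = 3). Mylpf, the regulatory light chain that Mylk2 phosphorylates, was 8.57, 2.85 and 2.25 FPKM in WT and 0.111, 0.384 and 0.0599 FPKM in BK KO. Its log2 fold change of -2.07 (standard error 0.41) was in the range of the fast-fibre genes Tnnc2 and Atp2a1. Cox8b was 10.3, 6.90 and 5.66 FPKM in WT and 1.18, 0.870 and 0.553 FPKM in BK KO. Eno3, the enolase of muscle, was 3.50 ± 0.459 and 2.08 ± 0.118 FPKM, and Capn3, a muscle protease, was 1.14 ± 0.267 and 0.640 ± 0.0883 FPKM (SD, n = 3), and neither passed the threshold. Klhl40, a stabiliser of thin filament proteins, was the exception in direction, at 2.68, 4.38 and 2.75 FPKM in WT and 5.46, 9.62 and 6.31 FPKM in BK KO, higher and past the threshold.

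**Figure D3:**
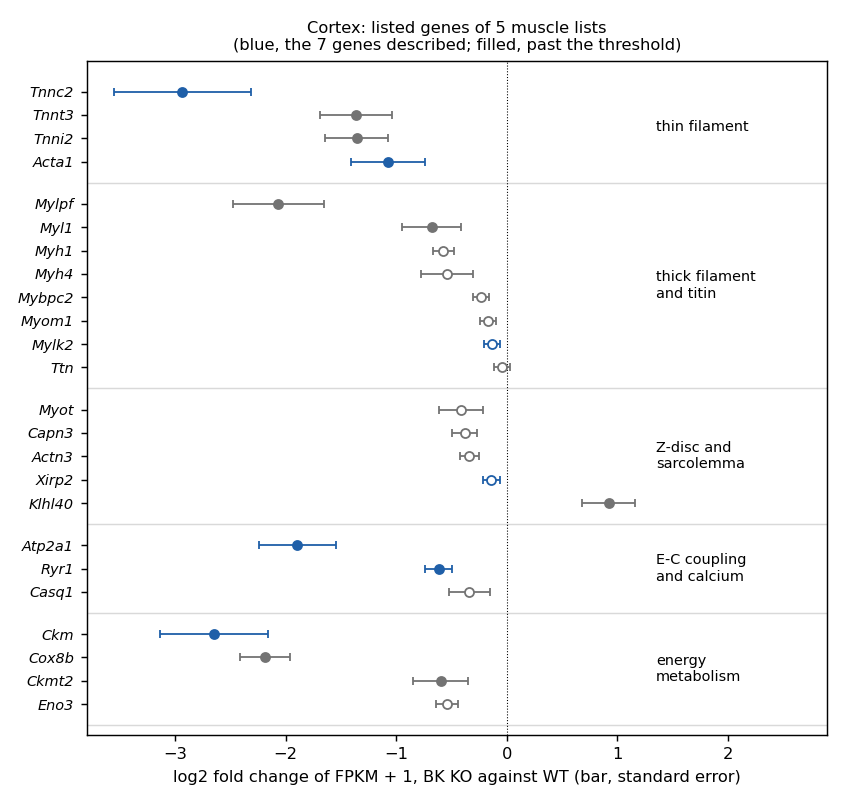
Log2 fold change of FPKM + 1 in BK KO against WT cortex (x axis, bars are standard errors) for the 24 listed genes of the muscle lists (y axis), with the 7 genes described in blue and those past the threshold filled. Klhl40 alone lies to the right of 0, and Tnnc2 and Ckm lie farthest to the left.

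Of 13 fast-fibre genes the cortex table held 11, Tnnc2 and Atp2a1 among them. The other 9 each had a lower BK KO mean, beside the 70.4% of all listed cortex genes. Lower and past the threshold were 4 of the 9, beside 20.0% of all listed cortex genes. The summed FPKM of the 9, without Tnnc2 and Atp2a1, ran from 7.46 to 19.6 over the WT libraries and from 1.08 to 1.20 over the BK KO libraries. Of 10 slow-fibre genes 0 were listed, and so were 0 of 10 heart genes and 0 of 12 genes of smooth muscle and mural cells. Not being listed says only that the table holds no value for a gene, not that it was at 0. The fast myosin heavy chain Myh4 did not follow WT replicate 1, since it was 0.103 FPKM there and 1.07 and 0.815 FPKM in WT replicates 2 and 3, the lowest of the 550 ratios. By the same ratio the fast-fibre genes Mybpc2 at 0.638 and Actn3 at 0.873 were not raised there either, and Myh1 was at 1.32. Casq1, Tnni2, Mylpf, Tnnt3 and Myl1 ran from 2.34 to 4.69. Myh4 shares 18.9% of its 50-base windows with Myh1, Myh2 and Myh8, so the split of reads between these genes is uncertain.

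Markers of other cells that a dissected piece of cortex could hold were scarcely listed. Of the red blood cell list 1 of 5 was present, Hba-a2, an α-globin, at 32.8, 17.6 and 18.1 FPKM in WT and 10.1, 5.19 and 16.3 FPKM in BK KO, also highest in WT replicate 1. Its 86.9% of windows shared with Hba-a1 leave its level uncertain. Of the fibroblast and meninges list 1 of 10 was present, Ogn, a matrix proteoglycan, with 2.18 to 3.35 FPKM in WT and 1.40 to 2.04 FPKM in BK KO. Adipocyte, choroid plexus, Schwann cell, bone, epidermis and pituitary lists had 0 genes in the cortex table. The part of fast-fibre and blood transcripts in the levels of the 8 genes was not tested. The cortical neuron list also had 0 listed genes in cortex, so the labelled tissue could not be checked there. In hippocampus Wfs1, of the hippocampal neuron list, was listed at 29.8 to 52.6 FPKM in WT and 75.9 to 124 FPKM in BK KO.

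Of the 20 paralogues of the 8 genes, 3 were listed in cortex, all with lower means in BK KO. They were Ckmt2, the mitochondrial creatine kinase of muscle, which was listed at 0 in all BK KO libraries, the calcium pump Atp2a3, whose groups overlapped, and Ryr3. Ryr3, a ryanodine receptor known from brain, was 1.40 to 1.67 FPKM in WT and 1.01 to 1.05 FPKM in BK KO, with a log2 fold change of -0.33, short of the threshold. The mouse annotation in the tables put 10 listed cortex genes under muscle contraction, Ryr1 included, all with lower means in BK KO, and 14 under Z disc, Ryr1 and Xirp2 included, 12 of them lower. For the calcium signaling pathway the tables named 11 listed cortex genes, 10 lower, of which 4 were Atp2a1, Mylk2, Ryr1 and Tnnc2. In hippocampus the same pathway had 13 listed genes, 3 lower and 10 higher, Cacna1s among the latter. Over all listed genes the mean was lower in 70.4% in cortex and in 58.1% in hippocampus.

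In hippocampus the mean of Cacna1s was higher in BK KO and that of Xirp2 lower. Xirp2 was lower in cortex as well, and Cacna1s has no cortex value to compare. Cacna1s, the voltage sensor of the transverse tubule, was 0.0449, 0.0248 and 0.0539 FPKM in WT and 0.293, 0.108 and 0.0936 FPKM in BK KO. Every BK KO library was above every WT library, as in 32.8% of all listed hippocampus genes, and BK KO replicate 1 was the highest. The BK KO mean of 0.165 ± 0.111 FPKM was 4.0 times the WT mean of 0.0412 ± 0.0149 FPKM (SD, n = 3). On the log2(FPKM + 1) scale the difference was 0.16 (standard error 0.11), and 0.84 with a pseudocount of 0.1.

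Xirp2 in hippocampus was 0.116, 0.0735 and 0.0330 FPKM in WT and 0.0369, 0.0182 and 0.0121 FPKM in BK KO. The groups overlapped, since the lowest WT library lay below the highest BK KO library, while 47.1% of all listed hippocampus genes were lower without overlap. Its WT mean was 3.31 times its BK KO mean, beside 4.27 times in cortex. The order of these folds depends on the measure, since the authors' base means, 65.0 and 18.7 in hippocampus and 107 and 45.3 in cortex, gave the larger fold in hippocampus, and the difference between the tissues was not tested. By limma 0 of the 2 genes passed the threshold in hippocampus, where 21.9% of all listed genes were past it and lower and 20.7% past it and higher. At an unadjusted p-value under 0.05 alone the count was also 0, and with a pseudocount of 0.1 it was 1, Cacna1s.

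**Figure D4:**
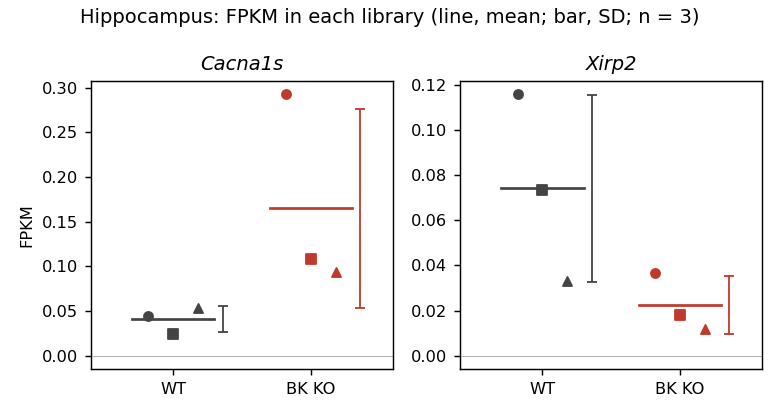
FPKM (y axis, a separate linear scale for each gene) of Cacna1s and Xirp2 in 3 WT and 3 BK KO hippocampus libraries, with the mean as a line and the SD as a bar (n = 3). Cacna1s was higher in every BK KO library, with replicate 1 at 0.293 FPKM, and the Xirp2 groups overlap.

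The muscle lists as a whole were thinly listed in hippocampus, with 6 of 103 genes, 3 lower and 3 higher and 0 past the threshold by limma. None of the thin filament, energy metabolism or fast-fibre genes was among them. Of all listed hippocampus genes 58.1% had a lower mean, 21.9% were past the threshold and lower, and 20.7% past it and higher. Beside Xirp2, the lower ones were Myh3, the embryonic myosin heavy chain, at 0.491 ± 0.119 and 0.209 ± 0.0295 FPKM, and Stac3, which couples Cacna1s to Ryr1, at 0.305 ± 0.135 and 0.154 ± 0.0559 FPKM (SD, n = 3). The higher ones beside Cacna1s were Flnc, a filamin of the Z-disc, and Musk, the receptor kinase of the neuromuscular junction. For Stac3 the groups overlapped, and for Myh3, Flnc and Musk they did not. Groups did not overlap for 47.1% of all listed hippocampus genes in the lower direction and for 32.8% in the higher. The difference between the tissues in what was listed was not tested.

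The authors' base means, the mean normalised read counts of each group, are a second measure of the same genes, and they come from the same contrast. For Acta1 they were 514 in WT and 221 in BK KO cortex, for Ryr1 580 and 263, for Atp2a1 260 and 22.5, and for Tnnc2 121 and 3.63. For Ckm they were 185 and 13.7, for Xirp2 107 and 45.3, and for Mylk2 10.5 and 0. In hippocampus they were 9.62 and 30.8 for Cacna1s and 65.0 and 18.7 for Xirp2. The levels in BK KO cortex of Tnnc2, Ckm and Atp2a1 thus rested on few normalised reads, as did Mylk2 in both genotypes. In hippocampus so did Cacna1s in both genotypes and Xirp2 in BK KO.

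The pair of measures did not move together for each gene. As normalised reads per FPKM, the BK KO value divided by the WT value had a median of 0.992 over 553 listed cortex genes, with 0.861 and 1.28 as the 5th and 95th percentiles. For Ckm it was 13.1, the highest of all 553, from 27.0 reads per FPKM in WT to 355 in BK KO. Atp2a1 at 1.82, Xirp2 at 1.80 and Tnnc2 at 1.47 were also above the 95th percentile, and so were Mylpf at 4.14 and Myl1, another light chain of fast myosin, at 3.73. Acta1 at 1.06 and Ryr1 at 1.05 were within the range. For Ckm, Tnnc2, Atp2a1 and Xirp2 the FPKM therefore fell further than the base mean.

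**Figure D5:**
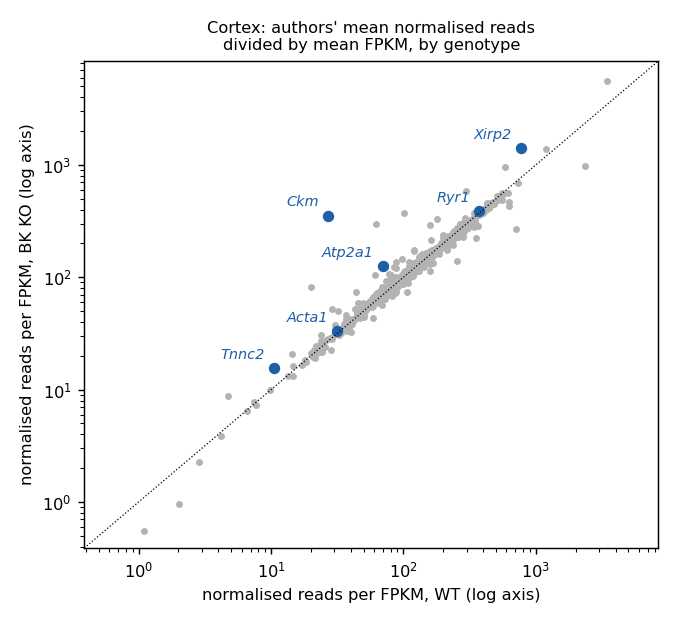
The authors' mean normalised reads divided by mean FPKM in BK KO cortex (y axis, log) against the same in WT cortex (x axis, log) for the listed genes above 0 in both, with the dotted line marking equal values. Ckm lies farthest above the line, at 355 against 27.0, and Acta1 and Ryr1 lie on it.

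Part of the transcripts of some of these genes overlaps another gene. In the GENCODE M21 annotation 55.0% of the 50-base windows of the Tnnc2 transcript also occurred, on the other strand, in Ube2c, a ubiquitin-conjugating enzyme of dividing cells. For Atp2a1 18.3% were shared, nearly all with Rabep2 on the other strand, for Cacna1s 16.4% with the antisense Gm37759, and for Ckm 11.7% with the antisense A930016O22Rik. The shared windows were 3.18% for Ryr1, 2.22% for Acta1, 1.01% for Xirp2 and 0 for Mylk2. Whether the counting used strand is not given in the sources used here, and without strand the reads of such partners cannot be told apart. Neither Ube2c, Rabep2 nor A930016O22Rik was listed in cortex or hippocampus.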

How the data were processed

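Tissue from adult BK KO and WT mice, flash frozen, gave poly-A libraries from 2 μg of RNA, sequenced as paired 150 bp reads. For each tissue the authors deposited the genes beyond 0.58 on the log2 fold change scale whose p-value, before adjustment, was under 0.05 by DESeq (1.10.1 per the submitters' processing notes, which also name DESeq2 and mm9). Aligner and counter are not given in the sources used here. The deposited value per library was taken as FPKM, from its relation to transcript length, since the authors name no unit. The deposited base means are the authors' normalised signal, read counts averaged per group. Columns of the authors' fold changes, p-values and adjusted p-values were not used. Depth is unknown, so no interval was computed.

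Groups came from the sample labels, and all per-library columns matched a sample. Each tissue was fitted with limma 3.58.1 (R 4.3.3) on log2(FPKM + 1), BK KO against WT, over all listed genes, without a filter or block, and the script was tested on simulated data. No p-value is given for the genes described. They and all gene lists were chosen with earlier results of these data known. Genes given by value were those 8, other muscle-list genes with a group mean of at least 1 FPKM, and listed paralogues. Selected listed markers and the 10 genes most like the 8 were given as well. Myh1, Myh4, Mybpc2, Actn3, Myl1, Myot, Casq1, Tcf23, Myh3, Stac3, Flnc and Musk were singled out after their values were seen. Motif and transcript searches used RefSeq promoters on GRCm38.p6 and GENCODE M21, with Python 3.11.15, pandas 2.3.3 and matplotlib 3.10.9. The sources do not say that libraries of 1 number share an animal, a litter or a day across genotypes. Alternatives were other pseudocounts, a mean of at least 0.5 FPKM, limma's trend, a replicate block, a stricter fold change and leaving out each library.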

Additional observations from a re-analysis of the deposited data

How the results depend on the processing

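Genes past the threshold numbered 173 in cortex and 278 in hippocampus, 408 and 548 with a pseudocount of 0.1, and 25 and 35 with a log2 fold change beyond 1. Of the 7 members in cortex 5 were past it, 7 with a pseudocount of 0.1 and 4 beyond 1. In hippocampus 0 of 2 became 1 with a pseudocount of 0.1. For the other muscle-list genes, an alternative chosen after seeing the data, the count of 6 became 14 with a pseudocount of 0.1. A mean of at least 0.5 FPKM left 5 members in cortex and moved their median log2 fold change from -1.07 to -1.90. Leaving out each library in turn gave 135 to 180 genes in cortex and 230 to 282 in hippocampus, 4 to 5 members in cortex and 0 to 0 in hippocampus, 4 to 7 other muscle-list genes, and a median between -1.36 and -0.70. Leaving out BK KO replicate 2 ended the call of Acta1, and leaving out WT replicate 2 or BK KO replicate 3 that of Ryr1.

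Libraries of the same number did not deviate together. The correlations of their deviations were -0.24, 0.12 and -0.22 in cortex and 0.02, 0.08 and -0.07 in hippocampus, and 2 of 6 and 1 of 6 libraries correlated best with their own number. With a replicate block, 165 cortex genes and 272 hippocampus genes were past the threshold, with 5 members in cortex. No direction of a single member turned under any alternative run. Unknown depth and low read counts limit Mylk2, Xirp2 and Cacna1s most, and the listed genes were selected on these same libraries.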
